A study of Mus musculus with 12 samples.

Results

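Nucleic-acid sensors are receptors that detect RNA or DNA where it should not be and switch on interferon genes. The 10 genes described here were chosen by name as this machinery, out of 28689 genes in the deposited table: the cytosolic RNA helicases Rigi (RIG-I), Ifih1 (MDA5) and Dhx58 (LGP2) with their adaptor Mavs, the DNA sensor Cgas with its adaptor Sting1, the Z-form nucleic acid sensor Zbp1, and the endosomal Toll-like receptors Tlr3, Tlr7 and Tlr9. Their RNA was measured in mouse lung endothelial cells (MLECs), with 6 CTR libraries and 6 dKO libraries, to ask how the sensors behave when the transcription factors Sp1 and Sp3 are deleted in endothelium.

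Both groups of adult male mice carried floxed Sp1 and Sp3 alleles (Sp1fl/fl/Sp3fl/fl) and received tamoxifen. The dKO mice also carried VE-CAD-CreERT2, a tamoxifen-activated Cre recombinase driven by the VE-cadherin promoter, whereas the CTR mice were littermates without Cre, whose genotype the labels give as WT. Controls therefore carry the floxed alleles and the drug, but not the Cre protein. Cells were taken from lung with beads against CD31, grown, selected again with beads against intercellular adhesion molecule 2 and used at early passage, so the libraries come from cultured cells. The titles and the tissue field of the labels name lung, while their extraction text speaks of retinas and a kit other than that of the study's methods, and this conflict was not settled here. Sftpc, a surfactant gene of lung alveolar epithelium, was at 58.8 to 416 FPKM in CTR and 114 to 307 FPKM in dKO. The number of mice behind a library is not given, so p-values measure the spread between these libraries. Library depth lay between 15523054 and 17938286 fragments.

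Sp1 fell by 0.95 on the log2 scale in the dKO libraries (limma, adjusted p = 5.68e-06), and no dKO library overlapped the CTR libraries. Sp3 had a difference of -0.14 (limma adjusted p = 0.0902) and overlapped. Columns named CTR were taken as controls and those named TAM as dKO by elimination, although both groups received tamoxifen. The match of columns to groups thus rests on this reading of the names and on Sp1. All 10 endothelial markers checked were detected in both groups, with a summed level of 188 to 309 FPKM in CTR and 358 to 483 FPKM in dKO, and all 10 were higher in dKO. FPKM counts fragments relative to the length of the gene and the size of the library. Markers of other cells were present as well: the most abundant fibroblast marker, Col1a1, reached 1267 FPKM in a CTR library, and the most abundant macrophage marker, Lyz2, reached 2953 FPKM in a dKO library. Macrophage markers differed between the groups: 11 of 12 were higher in dKO and 1 (Marco) was lower, none was at 0, and their summed level was 827 to 1377 FPKM in CTR and 2410 to 5391 FPKM in dKO. Of the 12, 1 reached 1 FPKM in dKO libraries only. In bulk RNA, fewer cells of a type and less RNA per cell cannot be told apart. The part of these cells in the differences below was not tested.

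As background, RIG-I and MDA5 bind viral or misplaced double-stranded RNA in the cytosol and pass the signal to MAVS on mitochondria. cGAS makes a cyclic dinucleotide on binding DNA, and STING answers it. Toll-like receptors 3, 7 and 9 read RNA or DNA inside endosomes and signal through TRIF (Ticam1) or MyD88 (Myd88). Both arms end in IRF transcription factors that induce type I interferon. Several of the sensors are themselves induced by interferon, so the pathway can feed back on its own receptors. Sp1 and Sp3 bind GC boxes in promoters.

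The promoter windows of Rigi, Ifih1, Mavs, Cgas, Tlr3 and Tlr9 were searched on both strands for 2 motifs. These were the GC box (GGGCGG) and the interferon response core (GAAA, then 2 bases of any kind, then GAAA). The motifs stand for the deleted factors and for interferon. RefSeq windows ran from 250 bases before to 50 bases after the start. They were used for 6 of the 10 members (Rigi, Ifih1, Mavs, Cgas, Tlr3 and Tlr9). No window was used for Dhx58, Zbp1, Tlr7 and Sting1, so nothing is said of their promoters. The start is that of RefSeq, which can differ from the ends of the GENCODE genes given below. For Mavs and Tlr3 it lies well inside the GENCODE gene. A variant core with only 1 base between the GAAA runs was added after the Rigi window had been read. Stretches that hold matches are printed 5′ to 3′ on the strand of the gene, with the matches in capitals.
Rigi, from 90 bases before to 20 bases after the start, GRCm39 chr4:40239806-40239915, minus strand: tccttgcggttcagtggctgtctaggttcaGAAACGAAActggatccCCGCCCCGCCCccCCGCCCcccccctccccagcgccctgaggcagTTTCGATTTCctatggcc
Ifih1, from 21 to 50 bases after the start, GRCm39 chr2:62476550-62476579, minus strand: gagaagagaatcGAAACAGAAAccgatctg
Mavs, from 150 bases to 1 base before the start, GRCm39 chr2:131075833-131075982, plus strand: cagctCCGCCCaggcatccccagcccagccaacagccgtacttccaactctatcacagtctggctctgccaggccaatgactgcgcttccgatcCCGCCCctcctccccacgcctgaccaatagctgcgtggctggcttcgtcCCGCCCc
Tlr3, from 21 to 50 bases after the start, GRCm39 chr8:45863368-45863397, minus strand: cagcactctgggtctctGGGCGGcagtccc

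The Rigi window held 3 GC boxes in reverse orientation, the first 2 of them sharing 1 base, the variant core upstream of them and 1 interferon response core just after the start. The Ifih1 window held 1 interferon response core and no GC box. The Mavs window held 3 GC boxes and no response core, and the Tlr3 window held 1 GC box. No GC box or response core was found in the windows of Cgas and Tlr9, which says only that these letters are not in them. Of all 32851 RefSeq windows of this length, 35.66% held a GC box and 19.49% held 2 or more. The response core was in 3.44% and the variant core in 3.17%. A match is a run of letters and was not tested as a binding site.

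Of the 10 sensors, 9 passed the filter on low values (6 or more of the 12 libraries at 1 FPKM or above), and each of these 9 was at 1 FPKM or above in all 6 CTR libraries. Tlr9 did not pass. Of the 9, 7 were higher in dKO (Rigi, Ifih1, Dhx58, Sting1, Zbp1, Tlr3 and Tlr7), 1 was lower (Mavs) and 1 did not pass the test (Cgas), by limma with Benjamini-Hochberg adjustment over all 12467 genes tested. Among all genes tested, 20.4% were higher and 32.6% were lower (2549 and 4065 genes), 53.1% in all. With libraries scaled by the median of gene ratios this split was 3213 higher and 3012 lower, and the median difference of all genes moved from -0.10 to -0.02 on the log2 scale. Complete separation, every dKO library above every CTR library, was seen for 6 of the 9 members tested, against 11.3% of all genes tested, and for Tlr9. No member was separated downwards, with every dKO library below every CTR library, as 16.1% of all genes were. Of the 9 members tested, Zbp1 also passed a log2 fold change of 1.5, which 1.43% of all genes (178) did in that direction. That number grew to 320 and 343 genes with pseudocounts of 0.1 and 0.01 and to 913 with limma-voom on all genes, where Tlr9, at a log2 fold change of 3.42 (adjusted p = 0.000557), passed too.

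**Figure D1:**
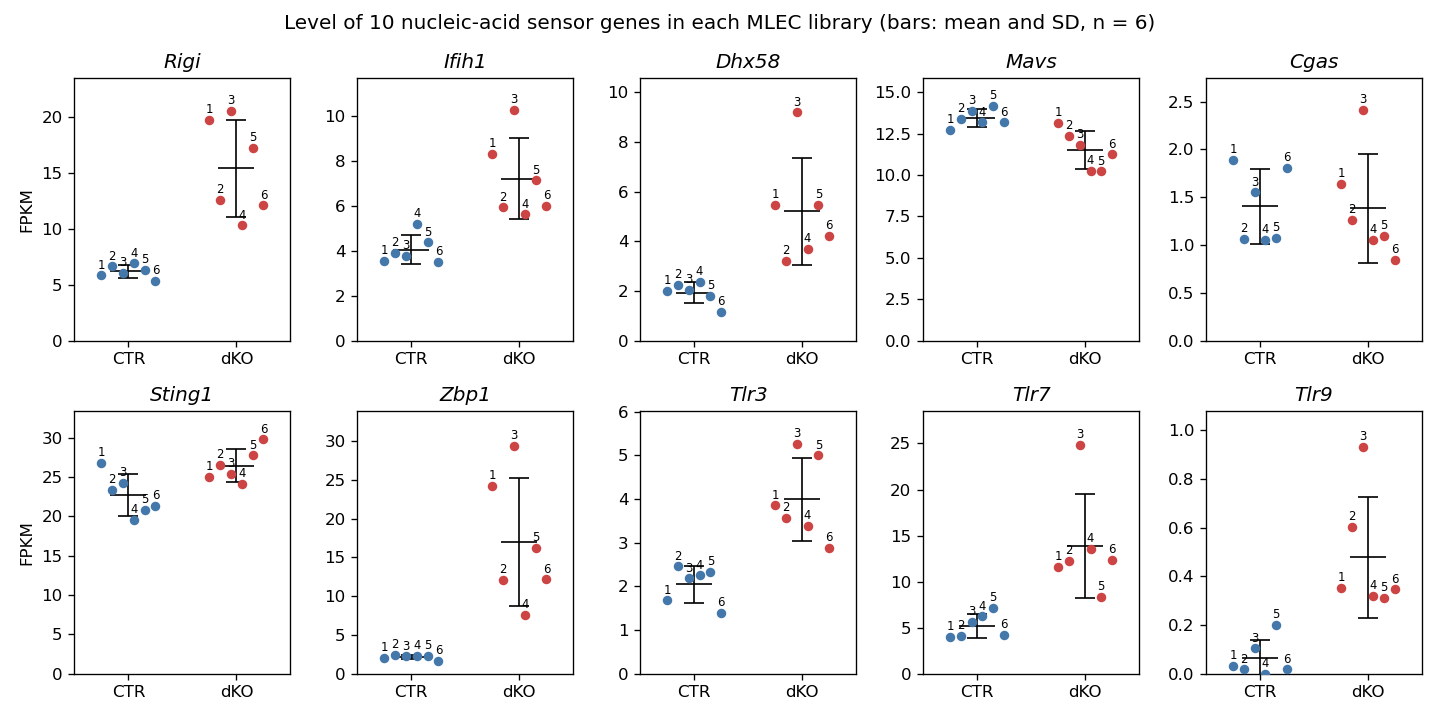
Level (FPKM, axis from 0) of each of the 10 sensors in the 6 CTR (blue) and 6 dKO (red) libraries; numbers are replicates, and black bars show the mean and SD. The red points lie wholly above the blue ones for Rigi, Ifih1, Dhx58, Zbp1, Tlr3, Tlr7 and Tlr9, and the groups overlap for Mavs, Cgas and Sting1.

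The 3 cytosolic RNA helicases rose together. Rigi (chr4:40203772-40239852, minus strand, GRCm39) had a lowest, median and highest level of 5.37, 6.20 and 6.92 FPKM in CTR and of 10.3, 15.0 and 20.6 FPKM in dKO. The means were 6.20 ± 0.566 and 15.5 ± 4.34 FPKM (SD, n = 6 each). The log2 fold change was 1.15 (SE 0.15, limma adjusted p = 5.14e-05) on the log2(FPKM + 1) scale, which understates the change of low genes. The lowest dKO library stood well clear of the highest CTR library, and the dKO libraries spread more widely than the CTR libraries.

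Ifih1 (chr2:62425714-62476607, minus strand), which prefers long double-stranded RNA, lay at 3.50, 3.82 and 5.18 FPKM in CTR and at 5.61, 6.55 and 10.2 FPKM in dKO. Its groups came closest to each other among the helicases without touching. The log2 fold change was 0.69 (SE 0.13, limma adjusted p = 0.000828). Dhx58 (chr11:100585710-100595097, minus strand) encodes LGP2, a helicase without the signalling domains of the other two, and tunes them. Its levels were 1.15, 2.02 and 2.36 FPKM in CTR and 3.22, 4.84 and 9.20 FPKM in dKO, with a log2 fold change of 1.03 (SE 0.19, limma adjusted p = 0.000571). The antisense gene Dhx58os overlaps it, and the use of strand in counting is not stated, but Dhx58os was listed at means of only 0.0247 FPKM in CTR and 0.0790 FPKM in dKO. Another antisense gene overlaps Dhx58, and others overlap Mavs, Cgas and Tlr3. These had no listed level, so their part in the values of those sensors is not known.

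Mavs (chr2:131075442-131096740, plus strand), the adaptor of RIG-I and MDA5, moved the other way. It lay at 12.7, 13.3 and 14.2 FPKM in CTR and at 10.2, 11.5 and 13.2 FPKM in dKO. Replicates 2 to 6 of dKO were each under the lowest CTR library, and replicate 1 fell within the CTR range. The log2 fold change was -0.21 (SE 0.07, limma adjusted p = 0.0177), larger in size than the median of all genes tested. Scaled by the median of gene ratios it was -0.12 with an adjusted p of 0.103, and when recovered fragments of the whole table were fitted by limma-voom it was -0.23 with an adjusted p of 0.0509, so the call depends on the scaling and the method.

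Setting each helicase against Mavs within the same library reduces the weight of the library's scale in the comparison. On log2(FPKM + 1) the scale does not cancel fully for low genes. The log2 ratio of Rigi to Mavs was -1.01 ± 0.114 in CTR and 0.36 ± 0.350 in dKO (SD, n = 6 each), so Rigi lay below Mavs in mean log2 level in CTR and above it in dKO. The difference of 1.36 had an exact two-sided permutation p of 0.00216, the smallest that 6 against 6 libraries can give, and an adjusted p of 0.00325 over the 9 pairs of genes tested. For Ifih1 and Dhx58 against Mavs the differences were 0.90 and 1.25 with the same p-values. Each helicase was already fully separated between the groups and Mavs was not higher, so these p-values largely repeat that separation. Ifih1 rose less than Rigi: their log2 ratio went from -0.52 ± 0.106 to -0.99 ± 0.154, a difference of -0.47 (exact permutation, adjusted p = 0.00325). Between Dhx58 and Rigi the difference was -0.12 (exact permutation, adjusted p = 0.327), and its sign turned with a pseudocount of 0.1 or 0.01.

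Zbp1 showed the largest change of the 9 sensors tested. Zbp1 (chr2:173033815-173060724, minus strand) binds left-handed Z-form RNA or DNA and can start cell death through RIPK3. It lay at 1.68, 2.24 and 2.45 FPKM in CTR and at 7.54, 14.2 and 29.4 FPKM in dKO. In fragments this was 101 to 146 per CTR library and 477 to 1821 per dKO library. The means of 2.15 ± 0.267 and 17.0 ± 8.28 FPKM (SD, n = 6 each) differed 7.89-fold, and the log2 fold change was 2.39 (SE 0.25, limma adjusted p = 9.80e-06). The CTR libraries were tight, whereas the highest dKO library held 3.90 times the level of the lowest. Of 4 partners of Zbp1 in cell death, 2 rose and 2 did not pass the test. Mlkl, the pore-forming executor of necroptosis, rose from 7.20 ± 1.48 to 15.8 ± 3.79 FPKM (log2 fold change 1.02, limma adjusted p = 0.000153), and Casp8, the protease that restrains it, rose from 13.5 ± 1.77 to 18.2 ± 1.81 FPKM (0.41, limma adjusted p = 0.00196). Ripk3 went from 13.3 ± 2.67 to 17.3 ± 4.55 FPKM without passing the test (adjusted p = 0.0758; named after its values were seen).

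Of the genes for DNA sensing, Cgas did not pass the test and Sting1 was called higher by a small margin. Cgas (chr9:78337802-78350535, minus strand) lay at 1.05, 1.31 and 1.89 FPKM in CTR and at 0.846, 1.18 and 2.41 FPKM in dKO. The difference was -0.03 on the log2 scale with a 95% interval from -0.35 to 0.30 (limma adjusted p = 0.886). The groups overlapped widely, and a rise as large as that of Rigi lies outside this interval. Each library held 58 to 175 fragments of it. Changes inside the 95% interval could not be told from none at this spread between libraries, and the sign was not stable across the alternatives.

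Sting1 had the highest mean FPKM of the 10 genes in both groups, though Zbp1 was above it in dKO replicate 3 (29.4 against 25.4 FPKM). It lay at 19.5, 22.3 and 26.8 FPKM in CTR and at 24.2, 26.0 and 29.8 FPKM in dKO. Only 2 dKO libraries lay above all CTR libraries. The log2 fold change of 0.22 (SE 0.08) had a limma adjusted p of 0.0363, which was lost in 7 of the 12 fits with a library left out, with no filter (0.0555), on the TPM scale (0.0792) and with limma-voom on all genes (0.0773). Without CTR replicate 2, 4, 5 or 6 or dKO replicate 2, 5 or 6 the log2 fold change lay between 0.18 and 0.23 and was not called. The log2 ratio of Cgas to Sting1 went from -3.31 ± 0.187 to -3.55 ± 0.385, a difference of -0.25 (exact permutation, adjusted p = 0.219). Without dKO replicate 3 it was -0.37 with an adjusted p of 0.0334.

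**Figure D2:**
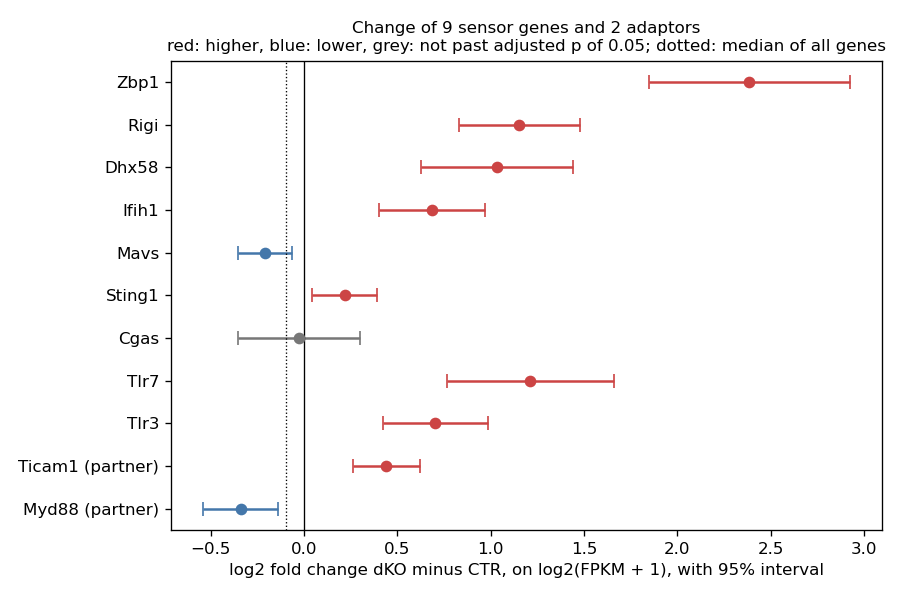
Log2 fold change (dKO minus CTR, on log2(FPKM + 1)) of the 9 sensors tested and the adaptors Ticam1 and Myd88, with 95% intervals; red, higher; blue, lower; grey, not past an adjusted p of 0.05; the dotted line is the median of all genes tested, -0.10. Zbp1 lies farthest to the right at 2.39, and Mavs and Myd88 lie to the left of 0.

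All 3 endosomal Toll-like receptors had every dKO library above every CTR library. Tlr3 (chr8:45848702-45864117, minus strand), the receptor for double-stranded RNA, lay at 1.39, 2.22 and 2.45 FPKM in CTR and at 2.88, 3.71 and 5.27 FPKM in dKO. The log2 fold change was 0.70 (SE 0.13, limma adjusted p = 0.000676). Its adaptor Ticam1 rose too, from 5.91 ± 0.733 to 8.36 ± 0.763 FPKM (log2 fold change 0.44, limma adjusted p = 0.000703). The ratio of Tlr3 to Ticam1 changed by 0.26 on the log2 scale (exact permutation, adjusted p = 0.111). That difference passed the test at 0.43 with a pseudocount of 0.1 (adjusted p = 0.0445), at 0.45 with 0.01 (0.0417) and at 0.35 without dKO replicate 6 (0.0167).

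Tlr7 (chrX:166086758-166113605, minus strand), the receptor for single-stranded RNA, lay at 3.98, 4.91 and 7.14 FPKM in CTR and at 8.35, 12.3 and 24.9 FPKM in dKO. A single library, dKO replicate 3, gave the highest value, and the other 5 dKO libraries lay between 8.35 and 13.6 FPKM. The log2 fold change was 1.21 (SE 0.21, limma adjusted p = 0.000370). It was lowest at 1.04 when a library was left out. The adaptor Myd88 fell, from 17.3 ± 1.76 to 13.5 ± 1.69 FPKM (-0.34, limma adjusted p = 0.00790), with overlapping groups. The log2 ratio of Tlr7 to Myd88 rose by 1.55 (exact permutation, adjusted p = 0.00325). With Tlr7 already separated and Myd88 lower, this p-value largely repeats the separation of Tlr7.

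Tlr9 (chr9:106099797-106104082, plus strand), the receptor for unmethylated CpG DNA, was the scarcest sensor. Its lowest, median and highest levels were 0, 0.0250 and 0.202 FPKM in CTR and 0.312, 0.349 and 0.933 FPKM in dKO. These levels rest on 0 to 12 fragments per CTR library and 19 to 57 per dKO library, 22 against 172 in all. A count of 0 allows up to 3 fragments, and the lowest dKO library still lay above the highest CTR library. The exact two-sided permutation p was 0.00216, not adjusted over genes. Its log2 difference was 0.46 on the log2(FPKM + 1) scale and depended on the pseudocount, with 1.86 for 0.1 and 3.33 for 0.01. Relative to Myd88 the log2 ratio rose by 0.80 on that scale (exact permutation, adjusted p = 0.00325), and by 2.22 and 3.70 with these pseudocounts. Here too the p-value largely repeats the separation of the sensor, as Myd88 fell.

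Tlr7 and Tlr9 are known for their strong expression in macrophages, plasmacytoid dendritic cells and B cells. Macrophage marker levels moved with them, with the summed levels given above. Within the 6 CTR libraries, Tlr7 correlated with the mean log2 level of the 12 macrophage markers at r = 0.896 and rho = 0.829 (exact permutation, adjusted p = 0.194 and 0.583 over 20 tests chosen after the values were seen). Within the 6 dKO libraries it did so at r = 0.889 and rho = 0.486 (exact permutation, adjusted p = 0.227 and 0.752). Without the 2 libraries farthest from the median r was 0.791 in CTR and 0.454 in dKO. Other sensors gave values of similar size in dKO: Dhx58 r = 0.874 and rho = 0.829, Cgas 0.863 and 0.429, Ifih1 0.856 and 0.714, Tlr9 0.787 and 0.429, Zbp1 0.736 and 0.714, and Rigi 0.620 and 0.543. Without dKO replicates 1 and 3, r was negative for each of these 6, from -0.926 for Cgas to -0.014 for Dhx58. None of the 20 correlations with macrophage markers passed the threshold after adjustment, and the part of macrophages in the Tlr7 and Tlr9 levels was not tested.

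Plasmacytoid dendritic cells and B cells left little trace. Siglech, a defining plasmacytoid marker, was at 0 in all 6 CTR libraries and had at most 3 fragments in a dKO library. Of 7 plasmacytoid markers, 2 passed the filter, Bst2 and Tcf4, which other cells also express. Bst2, itself induced by interferon, rose from 46.6 ± 3.94 to 196 ± 51.2 FPKM, and Tcf4 did not pass the test. None of 4 B cell markers and none of 4 T cell markers passed the filter, and the summed B cell level was 0 to 0.166 FPKM in CTR and 0.0383 to 0.374 FPKM in dKO. Of 5 neutrophil markers, 2 passed the filter and both rose, with a summed level of 19.6 to 117 FPKM in CTR and 111 to 317 FPKM in dKO, most of it from Mmp8. For fibroblasts, 3 of 5 markers tested fell and 1 rose (summed level 2122 to 2689 FPKM in CTR and 820 to 1645 FPKM in dKO), and for lung epithelium 1 of 6 rose.

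In order of mean FPKM, a per-length scale, CTR cells ran Sting1, Mavs, Rigi, Tlr7, Ifih1, Zbp1, Tlr3, Dhx58, Cgas and Tlr9. Neighbours from Rigi to Ifih1 and from Zbp1 to Cgas overlapped in range, so only the steps below Sting1, Mavs, Ifih1 and Cgas stood clear of the spread. In dKO cells the order was Sting1, Zbp1, Rigi, Tlr7, Mavs, Ifih1, Dhx58, Tlr3, Cgas and Tlr9, and the only neighbours without overlap were Tlr3 and Cgas. Zbp1 went from the sixth place to the second.

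Among the dKO libraries, 4 sensors shared the order of their top 3. Rigi, Ifih1, Dhx58 and Zbp1 were all highest in replicate 3, then in replicate 1, then in replicate 5. The other 6 ran in other orders, with Tlr3, Tlr7, Tlr9 and Cgas also highest in replicate 3. The mean log2 level of the 12 macrophage markers was also highest in dKO replicates 3 and 1 (6.99 and 6.24), against 5.93 to 6.13 in the others. A mean log2 level of 15 interferon-stimulated genes, none of them among the 10 sensors, was taken for each library. It describes the RNA of these genes and does not measure interferon itself. It was 1.42 to 1.82 in CTR, and 4.42, 3.94, 3.59, 2.89, 2.79 and 2.73 in dKO replicates 3, 1, 5, 6, 2 and 4. The dKO libraries thus split into 3 high and 3 lower ones, all above CTR.

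Within the 6 dKO libraries, Ifih1 followed this mean at r = 0.989 and rho = 1 (exact permutation, adjusted p = 0.0139 and 0.0278 over 20 tests). Zbp1 followed it at r = 0.951 and rho = 1 (exact permutation, adjusted p = 0.0139 and 0.0278), Dhx58 at r = 0.949 and rho = 0.943 (exact permutation, adjusted p = 0.0278 and 0.0667) and Rigi at r = 0.961 and rho = 0.943 (exact permutation, adjusted p = 0.0417 and 0.0667). Without replicates 1 and 3, the farthest from the median, r over the remaining 4 was 0.987 for Ifih1, 0.947 for Rigi, 0.914 for Dhx58 and 0.792 for Zbp1. Among these 4 libraries, replicate 5 stood apart with a mean of 3.59, against 2.73 to 2.89 in replicates 2, 4 and 6. These values of r therefore lean on 1 library. With 4 libraries the exact permutation p was 0.0417, the smallest possible, for Ifih1 and higher for the other 3, a design in which a call is easily lost.

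The other 6 sensors did not pass the threshold in dKO, and no test compared correlations between genes. Tlr3 gave r = 0.802 and rho = 0.771 (exact permutation, adjusted p = 0.148 and 0.228), with r = 0.868 without the 2 libraries, and Cgas gave r = 0.852 and rho = 0.714 (0.0764 and 0.247), where r became 0.035 without the 2 libraries. Tlr7 gave r = 0.445 and rho = -0.029 (0.516 and 1), Tlr9 0.506 and 0.429 (0.506 and 0.559), Mavs 0.341 and 0.314 (0.551 and 0.627) and Sting1 -0.249 and 0.086 (0.661 and 0.968). In these last 4 genes the sign of r turned without replicates 1 and 3. Within CTR, Ifih1 passed the threshold on r alone (r = 0.900 and rho = 0.829, exact permutation, adjusted p = 0.0444 and 0.167), with r = 0.907 without the 2 libraries. Sting1 and Cgas gave negative values there that did not pass it (r = -0.897 and -0.881, rho = -0.943 and -0.886, exact permutation, adjusted p = 0.0648 and 0.0764 for r and 0.0667 and 0.111 for rho). No other member passed in CTR.

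**Figure D3:**
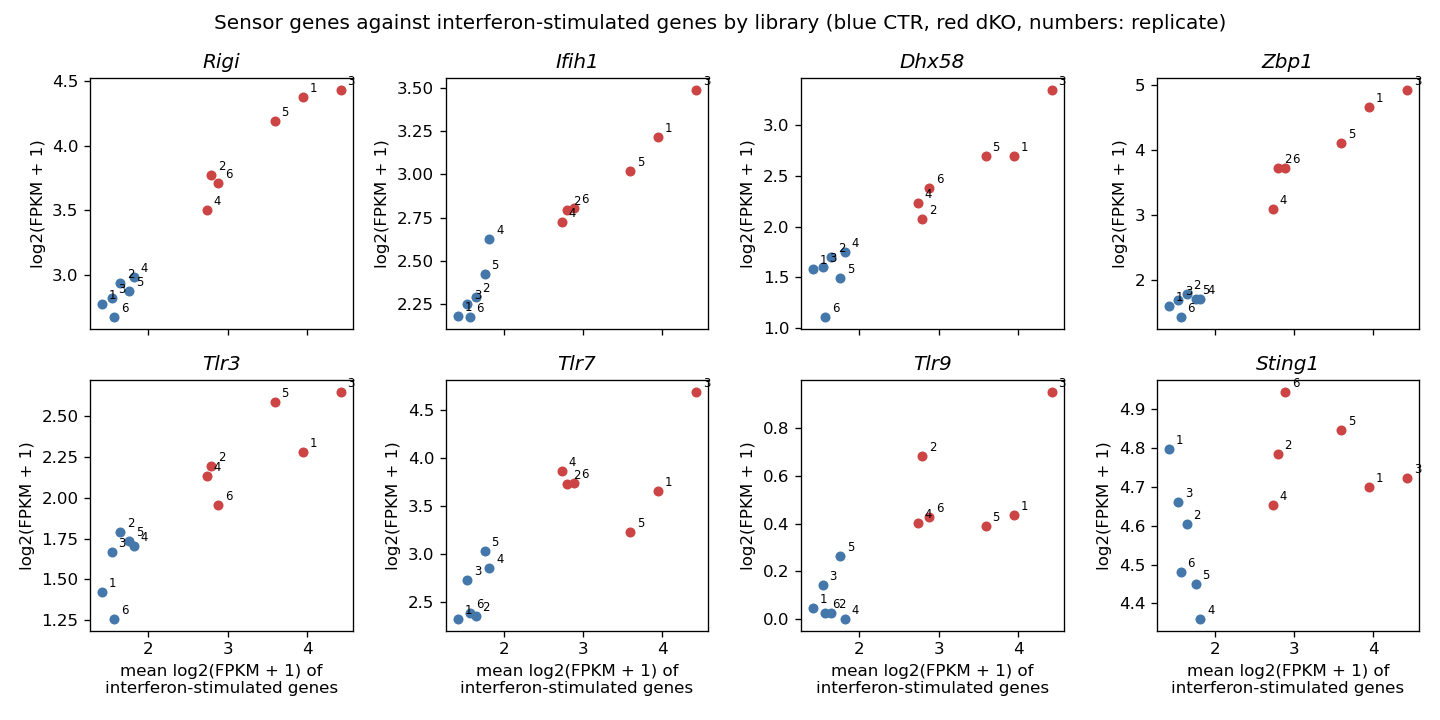
Level of 8 sensors (log2(FPKM + 1)) against the mean log2(FPKM + 1) of 15 interferon-stimulated genes in each CTR (blue) and dKO (red) library, with replicate numbers. Rigi, Ifih1, Dhx58 and Zbp1 climb with the mean across the red points (r from 0.949 to 0.989), and r is 0.445 for Tlr7, 0.506 for Tlr9 and -0.249 for Sting1.

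The genes whose deviations from their group means over the 12 libraries were most like the mean deviation of the 3 helicases were Parp9 (r = 0.973), Tap1 (0.972), Phf11d (0.969), Rtp4 (0.968) and Xaf1 (0.963). Among the other sensors, Zbp1 ranked 13th in this likeness with r = 0.924. Tlr3 ranked 94th, Tlr7 925th and Cgas 1082nd among all genes tested, and Mavs and Sting1 ranked lower still. All of these values share the same libraries and are a description.

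Genes that signal downstream of the sensors went both ways, and the IRF transcription factors differed among themselves. Of 17 genes tested, 6 rose, 5 fell and 6 did not pass the test, with a median log2 fold change of 0.10 against -0.10 over all genes tested. The counts of this list and of those below stand beside 20.4% higher and 32.6% lower among all genes tested. Irf7, which drives the second wave of interferon-α, rose from 2.37 ± 0.559 to 15.8 ± 11.0 FPKM (log2 fold change 2.13, limma adjusted p = 7.95e-05). Irf5 rose from 1.53 ± 0.393 to 6.26 ± 2.11 FPKM (1.49), and the kinase gene Ikbke rose by 0.58 on the log2 scale. Irf3, the factor that MAVS and STING activate first, fell from 9.77 ± 0.321 to 7.74 ± 0.246 FPKM, with all dKO libraries below all CTR libraries (-0.30, limma adjusted p = 0.000205).

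Positive cofactors also went both ways: 8 of 20 rose, 9 fell and 3 did not pass, with a median of -0.01. Ifit3, which links MAVS to its kinase, rose by 3.16, and Ctsb and Lgmn, proteases that trim endosomal Toll-like receptors, rose by 1.41 and 1.18 on the log2 scale. G3bp1, a stress-granule protein that assists RIG-I and cGAS, fell from 36.1 ± 6.48 to 23.4 ± 1.37 FPKM (-0.59), and Tomm70a, the mitochondrial import receptor that binds MAVS, fell by 0.48.

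Inhibitors of the sensors were split as well, with 7 of 19 higher, 5 lower and 7 not past the test (median 0.09). Usp18, which removes ISG15 and damps interferon receptor signalling, rose from 1.01 ± 0.255 to 10.5 ± 6.01 FPKM (log2 fold change 2.37). Tnfaip3 (A20) rose by 1.15 and Nlrc5 by 1.09. Nlrc5 was under 1 FPKM in all 6 CTR libraries and passed the filter only through its dKO libraries. Trim59 fell from 15.9 ± 4.90 to 5.68 ± 1.58 FPKM (-1.31), and Banf1, which coats self DNA and keeps cGAS off it, fell from 99.4 ± 19.7 to 59.9 ± 6.47 FPKM (-0.70). Enzymes that remove or modify self nucleic acid gave 4 higher, 3 lower and 6 not past of 13 tested (median -0.02). The lysosomal nuclease gene Dnase2a rose by 0.60 and Adar, which edits double-stranded RNA, by 0.54. Rnaseh2a, a subunit of the enzyme that removes ribonucleotides from DNA, fell by 0.35, and Supv3l1, a mitochondrial RNA helicase, fell by 0.42. Plcg2, which was in this list but is a phospholipase and no nuclease, rose by 0.87.

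Other nucleic-acid sensors and effectors were mostly higher: 10 of 15 rose, 2 fell and 3 did not pass, with a median of 0.82. Oas1a, an RNA-activated synthetase, rose from 1.66 ± 0.652 to 15.8 ± 8.89 FPKM (2.56), Ifit1, which binds foreign RNA ends, by 2.18, and Oas2 by 1.92. Oas2 was under 1 FPKM in all 6 CTR libraries and passed the filter only through its dKO libraries. Hmgb1, a DNA-binding chromatin protein, fell from 38.3 ± 3.69 to 22.2 ± 1.86 FPKM (-0.76), and the helicase gene Ddx41 fell by 0.27. Reads may be shared among the near-identical Oas1 copies, so the Oas1a value is uncertain. Surface Toll-like receptors, which sense proteins and lipids, were higher as well in 3 of 3 tested: Tlr2 by 1.08, Tlr6 by 0.86 and Tlr4 by 0.53. The other 2 of the list, Tlr1 and Tlr5 (named to complete it), did not pass the filter. Tlr1 had means of 0.230 FPKM in CTR and 1.26 FPKM in dKO without overlap. Tlr5 had means of 0.620 and 0.730 FPKM, and its groups overlapped. Tlr6 was under 1 FPKM in all 6 CTR libraries and passed the filter only through its dKO libraries.

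**Figure D4:**
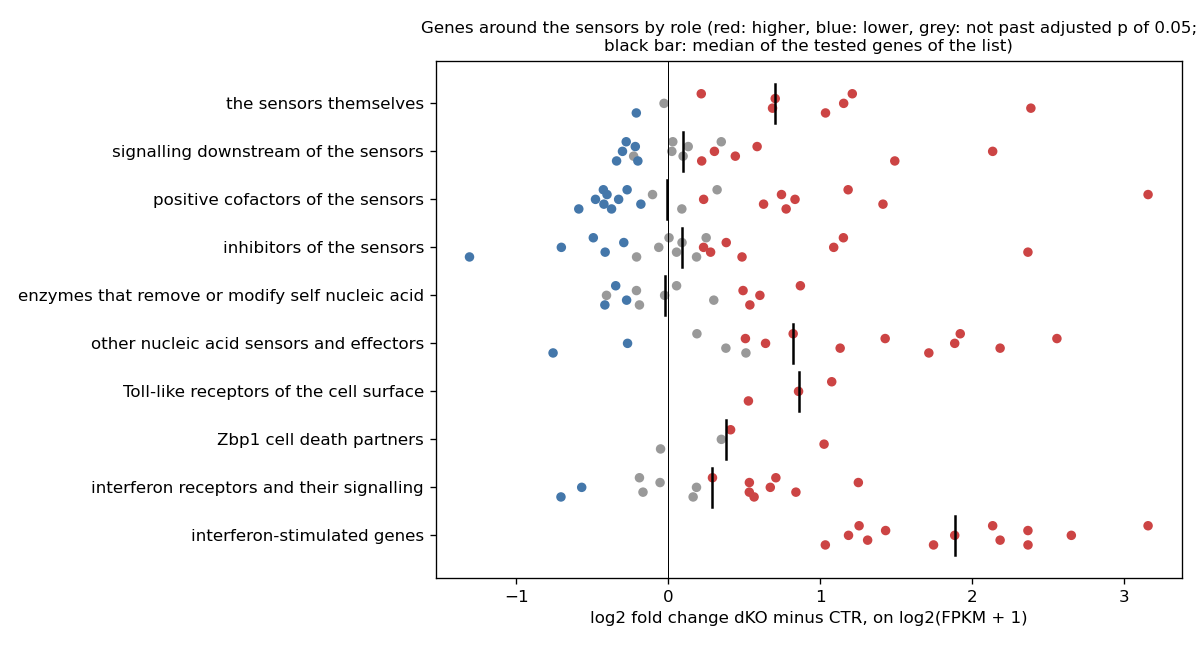
Log2 fold change (dKO minus CTR, on log2(FPKM + 1)) of each tested gene by role, 1 point a gene; red, higher; blue, lower; grey, not past an adjusted p of 0.05; black bars are list medians. The 13 interferon-stimulated genes lie wholly to the right of 0, and the 17 downstream signalling genes lie on both sides of it.

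RNA of the 2 interferon ligand genes that could be read was hardly detected. Of 20 interferon ligand genes listed, 2 were matched in the table, so nothing is said of the rest. Ifnb1 had 1 fragment over all CTR libraries and 5 over all dKO libraries, and Ifna15 had 0 and 1, so neither was tested and no difference was detectable at this depth. The receptors and their signalling genes gave 8 higher, 2 lower and 5 not past of 15 (median 0.29). Stat2, which carries the interferon signal to the nucleus, rose by 1.25 and its DNA-binding partner Irf9 by 0.71 on the log2 scale. Jak2 fell from 32.8 ± 4.33 to 19.7 ± 3.02 FPKM (-0.71) and Socs3, a feedback inhibitor, from 74.6 ± 7.48 to 50.6 ± 10.4 FPKM (-0.57).

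Interferon-stimulated genes had the highest median of the pathway lists at 1.88, with 13 of 13 tested higher. Of these 13, 1 reached 1 FPKM in dKO libraries only and passed the filter through them. Isg15, a ubiquitin-like protein, rose from 10.1 ± 1.61 to 80.6 ± 49.5 FPKM (log2 fold change 2.65), Ifit3 by 3.16 and Rtp4 by 2.37. All lists overlap in biology and some in members (Ifit3, Irf7, Usp18, Ifit1 and Oasl2 each stand in 2), and they are described by counts and medians with no test of the list.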

How the data were processed

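RNA of MLECs was sequenced in 6 CTR and 6 dKO libraries. Per the paper, trimming was by Trimmomatic, alignment to mm39 by STAR and selection of uniquely aligned reads by sambamba; the authors deposited FPKM values per gene. The submitters' processing notes also list Bowtie2 2.2.3, HISAT2 2.1.0, TopHat2 and DESeq2. The counting program, the annotation and the use of strand are not given in the sources used here.

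Symbols and positions came from GENCODE on GRCm39, matched by Ensembl identifier; 983 of 28689 genes had no match. Because the deposited FPKM values are no counts, log2(FPKM + 1) was tested with limma 3.58.1 (lmFit, eBayes with a trend) in R 4.3.3 on genes that reached 1 FPKM in 6 or more of the 12 libraries. P-values were adjusted by Benjamini-Hochberg over all 12467 genes tested. Whole fragments were recovered from the FPKM for all genes (100% within 0.0001 fragments), and limma-voom on them was an alternative. Fragment numbers and floors cover counting error only.

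Single values were tested over every split of the 12 libraries into 6 and 6, and correlations over all 720 pairings, exactly and two-sided. The members and lists were chosen with earlier results of these data known. Named genes are the members, Sp1, Sp3, Ticam1, Myd88, the 3 largest rises and 2 largest falls per pathway list, the most abundant cell type markers and the 5 genes most like the helicases; others say so or belong to a marker list, and 1 gene that this rule names is not reported here. The limma step was tested on simulated data. Promoter windows are those of RefSeq (GRCm38.p6), placed on GRCm39 by exact match. Python 3.11.15 served for the rest, with SciPy 1.17.1, pandas 2.3.3, NumPy 2.4.6, Matplotlib 3.10.9 and numba 0.67.0. Alternatives were pseudocounts of 0.1 and 0.01, filters, scalings, robust eBayes, a block and leaving out each library. The correlations with macrophage markers, the variant response core and limma-voom on all genes were chosen after seeing the data.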

Additional observations from a re-analysis of the deposited data

Results flagged for a closer look

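In 100 groups of 6 values, those of the members, Sp1, Sp3 and the genes named by rule, 11 held 1 library that stood apart from the other 5 by Dixon's gap criterion (the gap to the nearest library over the range of the group); about 5 such groups arise by chance. Among the sensors this was Tlr7 in dKO replicate 3, at 24.9 FPKM against 8.35 to 13.6 FPKM in the other dKO libraries.

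Of the genes around them, dKO replicate 3 stood apart for Irf5 (10.3 FPKM), Plcg2 (8.48 FPKM) and Oas2 (11.5 FPKM). It was also the library with the highest macrophage marker sum, 5391 FPKM. The library dKO replicate 5 stood apart for Ikbke (8.59 FPKM), Tnfaip3 (18.0 FPKM against 2.75 to 4.33 FPKM), Tlr2 (27.8 FPKM against 4.02 to 6.52 FPKM) and Jak2 (25.5 FPKM). Tomm70a stood apart in dKO replicate 1 (45.2 FPKM), Irf3 in CTR replicate 3 (10.4 FPKM) and Jak2 in CTR replicate 4 (24.4 FPKM). What sets these libraries apart was not tested.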

How the results depend on the processing

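Rigi, Ifih1, Dhx58, Zbp1, Tlr3, Tlr7 and Sp1 kept their direction and stayed past the threshold under every alternative that could be fitted; Dhx58, Tlr3 and Cgas were not tested with the filter of 5 FPKM. Tlr9 kept its direction under each of its 16 alternatives. With a minimum of 5 FPKM in 6 or more libraries, 4222 genes in place of 6614 passed the test, and 34 in place of 56 pathway genes were higher; fewer genes were tested. Genes past a log2 fold change of 1.5 went from 247 to 1702 (limma-voom on all genes), 516 (limma-voom on the tested genes), 525 and 486 (pseudocounts of 0.01 and 0.1) and 387 (rescaled to TPM). The number of sensors called lower was 0 with limma-voom on all genes (Mavs -0.23, adjusted p = 0.0509) or with scaling by the median of gene ratios (Mavs -0.12, adjusted p = 0.103), and the latter left 17 in place of 26 pathway genes lower. Cgas turned sign at 0.014 (quantile normalization) and 0.024 (median of gene ratios) and ranged from -0.14 to 0.039 with a library left out. Sting1 lost its call at 0.23 (limma-voom on all genes), 0.22 (no filter) and 0.17 (TPM) and ranged from 0.18 to 0.26 with a library left out. Sp3 was called at -0.20 (TPM) and ranged from -0.18 to -0.11 with a library left out, being called without CTR replicate 6. Dhx58 against Rigi turned sign at 0.072 and 0.10 (pseudocounts of 0.1 and 0.01) and ranged from -0.19 to -0.066 with a library left out. Tlr3 against Ticam1 passed at 0.43 and 0.45 (the same pseudocounts) and ranged from 0.20 to 0.35, and Cgas against Sting1 from -0.37 to -0.14, with a library left out. Without dKO replicates 1 and 3, r with the interferon-stimulated genes was -0.474 for Mavs, 0.360 for Sting1, -0.990 for Tlr7 and -0.406 for Tlr9. Replicate 5 stood apart in the mean of these genes among the libraries left, so these values lean on it. The cause of these changes was not tested.

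Libraries with the same replicate number did not deviate together in every pair (correlations from -0.108 to 0.565), so the numbers were not taken to pair them. With the replicate block, 6955 genes passed the test and Sting1 (0.22) lost its call with an adjusted p of 0.0519; no other sensor changed its call. Only 2 of the 6 dKO libraries correlated best with the CTR library of their own number. Few fragments limit what can be said of Tlr9 and the interferon ligands.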
